A study of Homo sapiens with 6 samples.

Results

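Expression of 10 transcription factor genes of the AP-1 and immediate early response was examined in HaCaT, an immortalized human keratinocyte line: FOS, FOSB, FOSL1, FOSL2, JUN, JUNB, JUND, ATF3, EGR1 and MYC. They were taken by symbol from the 20014 Ensembl genes of the deposited table, where all 10 were present. No measured value enters the rule, which lists the symbols, although it was written with earlier results of these data known. HaCaT cells given a lentiviral CRISPR guide against STUB1, an E3 ubiquitin ligase that works with HSP70 and HSP90 chaperones, were set against cells with a control guide (genotype WT). Neither group had a special treatment, and each had 3 libraries of poly(A)-selected RNA. Both groups carried the viral vector and were sorted and grown as colonies, and the labels do not say how many clones, cultures or preparations the 3 libraries of a group represent. The p-values therefore rest on library-to-library spread that could be technical. The title of the series names the EDAR receptor and NF-kB, and no label speaks of growth factor stimulation or of the time since feeding.

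AP-1 is a dimer of bZIP proteins: a FOS protein pairs with a JUN protein, or JUN proteins pair with each other, and the dimer binds a short palindromic DNA element. FOS, FOSB, JUN, JUNB, ATF3, EGR1 and MYC are immediate early genes, which MAP kinases switch on within minutes of a growth factor, stress or wound signal without new protein synthesis, and their mRNAs are short-lived. In epidermis AP-1 proteins govern proliferation, matrix proteases and the genes of differentiation, and MYC, which pairs with MAX, drives growth and ribosome production.

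Of the 10 genes, EGR1, FOSB and JUN rose in the knockout and MYC fell, while FOS, JUNB, FOSL1, FOSL2, JUND and ATF3 did not pass the test. EGR1 was 1.62-fold, FOSB 1.99-fold and JUN 1.35-fold the control mean, and MYC stood at 84.7% of it. Changes were tested with limma on log2(FPKM + 1), where FPKM is fragments scaled to transcript length and to library size, over the 11262 genes with a mean of at least 1 FPKM. A gene passed at a Benjamini-Hochberg adjusted p under 0.05. With the replicate number added as a block, FOS and JUNB passed as well, in a fit where 12.1% of all tested genes were higher. The labels give no such pairing, and the block was chosen from these same values. All 10 genes passed the filter on low values. Of all tested genes, 22.9% passed, 9.58% higher and 13.3% lower. The median log2 fold change of the 10 genes was 0.23, beside -0.01 for all tested genes. This median depended on the fit. It was 0.12 after a correction of each library for GC content and transcript length (all tested genes -0.002). Without control library 3 it was 0.34 (all tested genes -0.01). Libraries of the groups did not overlap for 4 of the 10 genes, those that passed, beside 45.6% of all tested genes. Of these 4, 3 were higher in the knockout and 1 lower, beside 20.4% and 25.3% of all tested genes. FPKM values from bulk RNA cannot tell a change in every cell from a change in the share of cells that express a gene.

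Estimated library sizes were 45200000 to 52500000 reads. They come from the steps between low FPKM values, of which 61.2% to 66.7% lay within 0.15 of a whole read, so reads were not recovered. The targeted gene, STUB1, lay at 21.6 to 24.7 FPKM in the knockouts and at 37.8 to 52.7 FPKM in the controls. Control 3 stood apart: it correlated across genes with the other controls at Pearson's r of 0.986 and 0.988, where all other pairs within a group reached 0.996 to 0.999. Relative to the mean of the libraries it changed by -0.10 log2 units per doubling of transcript length, against -0.01 to 0.03 in the other 5 libraries. Results that rest on control 3 are therefore also given without it. A trend with GC content split by group. Per 10 percentage points of GC, knockouts 1, 2 and 3 changed by 0.012, 0.135 and 0.038 log2 units relative to the mean of the libraries. Controls 1, 2 and 3 changed by -0.100, -0.037 and -0.048. This trend cannot be told apart from genotype here, and some results are also given after a correction for GC content and transcript length. Of 10 keratinocyte markers, 8 passed the filter, and all 10 summed to 912.1 to 983 FPKM in control and 1098 to 1208 FPKM in knockout. SFN was the most abundant of them, and the highest single value was 509.6 FPKM. Fibroblast markers summed to at most 0.562 FPKM in any library, with DCN at 0. Of 6 melanocyte markers, which summed to 6.46 to 7.65 FPKM over both groups, 2 passed the filter and TYR was at 0. PMEL was the most abundant of them, and the highest single value was 5.825 FPKM. Leukocyte markers came to 21.5 to 22.5 FPKM in control and 22.9 to 25.6 FPKM in knockout, nearly all of it CD68, a lysosomal protein that is not confined to leukocytes, and TYROBP was at 0.

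The region just before the transcription start is where serum response factor, CREB and AP-1 itself are known to bind immediate early genes. Shown here are the 250 bases before the transcription start that RefSeq gives, 5′ to 3′ along the gene, of EGR1 and FOSB, which had the largest fold changes of the 10 genes, from RefSeq (GRCh38.p14). Capitals mark a CArG box, the core of the serum response element, in EGR1, and TGACGT (the core of the cyclic AMP response element) and TATAAA in FOSB. The windows are chr5:138465229-138465478 on the plus strand for EGR1 and chr19:45467746-45467995 on the plus strand for FOSB. Gene spans in the text are from GENCODE 29, whose outermost starts of JUN, FOS and FOSB lie upstream of the RefSeq starts. For JUN and FOS the window searched for motifs therefore also holds bases that GENCODE 29 places in the gene. For FOSB this is the last base of the window, 45467995.
EGR1: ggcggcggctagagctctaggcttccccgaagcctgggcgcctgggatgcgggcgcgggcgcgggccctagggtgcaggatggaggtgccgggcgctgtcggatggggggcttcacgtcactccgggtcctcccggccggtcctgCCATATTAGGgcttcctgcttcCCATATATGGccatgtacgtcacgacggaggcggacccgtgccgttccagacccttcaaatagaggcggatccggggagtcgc
FOSB: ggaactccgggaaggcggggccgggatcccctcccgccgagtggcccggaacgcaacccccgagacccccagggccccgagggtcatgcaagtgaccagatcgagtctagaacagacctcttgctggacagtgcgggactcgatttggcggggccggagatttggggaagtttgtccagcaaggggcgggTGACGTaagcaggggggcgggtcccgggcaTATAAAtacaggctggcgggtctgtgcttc

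The motifs searched on both strands were TGACGT, its longer form TGACGTCA, TGACTCA (the classical AP-1 element), TGACATCA, TATAAA and the CArG box. Of the 9 genes searched, 8 had an entry in the table, ATF3 with 2 starts and FOSL1 not among them, and MYC was not searched. EGR1 held 2 CArG boxes, at bases 105 to 96 and 83 to 74 before the RefSeq start, from which all positions here are counted. No other searched gene held a CArG box within the 250 bases, where 1.16% of 35116 windows of this length hold it. Bases further upstream were not searched, so the search cannot say whether other genes carry a CArG box there. TGACGT was present in FOS, FOSB, FOSL2, JUND and EGR1 (7.10% of all windows), and in FOS, FOSB and FOSL2 it began 64, 60 and 66 bases before the start. JUND alone of the searched genes held TGACGTCA (1.65% of windows), which contains TGACGT. TGACATCA began 67 bases before the start in JUN and 123 bases in ATF3 (2.37% of windows). TGACTCA was not found in any of these windows, against 4.20% of all, and TATAAA was found in FOS, FOSB, JUNB and ATF3 (10.7% of all). A match describes the letters only. Genes with TGACGT were found both among those that rose (FOSB, EGR1) and among those that did not pass (FOS, FOSL2, JUND).

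EGR1 encodes a zinc finger activator that binds GC-rich elements. It lies on chromosome 5 at 138465490 to 138469315 (GRCh38, ENSG00000120738). It measured 119.3, 129.6 and 133.8 FPKM in knockouts 1, 2 and 3, and 76.4, 78.8 and 80.5 FPKM in controls 1, 2 and 3. The lowest knockout library was well above the highest control library, and the spread within each group was small, at 128 ± 7.48 against 78.6 ± 2.07 FPKM (SD, n = 3). On the log2 scale EGR1 rose by 0.69 (SE 0.0738), with an adjusted p of 0.000507 from limma. Among tested genes, 95 had a log2 value as high as that of EGR1 or higher, EGR1 included. Leaving out any library moved the value only between 0.66 and 0.74, with an adjusted p of at most 0.00942. Of 127 tested genes within 10 Mb of EGR1, 28 were higher and 9 lower, beside 9.58% and 13.3% of all tested genes. Their median log2 value was 0.02, and a part of the region in the EGR1 value was not tested. The exact two-sided permutation test for 3 against 3 libraries cannot go below 0.1, which holds for each gene here.

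FOSB, a FOS protein that is scarce in unstimulated cells, had the largest fold change of the 10 genes. It lies on chromosome 19 at 45467995 to 45475179 (ENSG00000125740). Its FPKM was 19.0, 20.0 and 31.6 in knockouts 1, 2 and 3, and 9.92, 12.3 and 13.2 in controls 1, 2 and 3. The groups did not overlap, and knockout 3 stood far above the other knockouts. Means were 23.5 ± 7.01 and 11.8 ± 1.70 FPKM (SD, n = 3), for a log2 fold change of 0.91 (SE 0.178; limma, adjusted p = 0.00783). Without knockout 3 the log2 value was 0.68 (adjusted p = 0.0109), and after a correction of each library for GC content and transcript length it was 0.76 (adjusted p = 0.0263). Of 314 tested genes within 10 Mb of FOSB, 54 were higher and 5 lower, beside 9.58% and 13.3% of all tested genes. The median log2 value of these neighbours was 0.12, and a part of the region in the FOSB value was not tested.

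JUN encodes c-Jun, the partner common to FOS proteins and a substrate of the JNK kinases. It lies on chromosome 1 at 58780788 to 58784327 (ENSG00000177606). The knockouts gave 39.5, 40.8 and 46.1 FPKM and the controls 29.2, 32.0 and 32.4 FPKM, in replicate order. No control library reached the lowest knockout library. The means were 42.1 ± 3.51 and 31.2 ± 1.74 FPKM (SD, n = 3), with a log2 fold change of 0.42 (SE 0.0826; limma, adjusted p = 0.00796). Leaving out any library kept the adjusted p under 0.05, although without knockout 3 it came to 0.0497. Genes within 10 Mb of JUN had a median of -0.01, with 3 of 72 higher and 5 lower, beside 9.58% and 13.3% of all tested genes.

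FOS, which encodes c-Fos, was higher in the knockout by its mean but did not pass. It lies on chromosome 14 at 75278774 to 75282230 (ENSG00000170345). Knockouts 1, 2 and 3 measured 64.8, 59.9 and 95.6 FPKM, and controls 1, 2 and 3 measured 38.0, 42.9 and 66.5 FPKM. Replicate 3 was highest in both groups, and control 3 exceeded knockouts 1 and 2, so the groups overlapped. Within each number the knockout was higher, 1.71-fold, 1.40-fold and 1.44-fold for replicates 1, 2 and 3. The log2 fold change was 0.58 (SE 0.218, 95% interval 0.09 to 1.07; limma, adjusted p = 0.0828). With the replicate number as a block the same value had an adjusted p of 0.00164 (limma). The labels do not pair libraries by number, and the block was chosen from these same values. Without control 3 the value was 0.82 (adjusted p = 0.000146). Without knockout 3 it was 0.38 (adjusted p = 0.24).

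Replicate 3 was also high for other members. FOS in knockout 3 was 1.53-fold the mean of knockouts 1 and 2, and in control 3 it was 1.65-fold the mean of controls 1 and 2. FOSB had 1.62-fold and 1.19-fold for these ratios, and ATF3 had 1.38-fold and 1.16-fold. JUNB and JUND were raised in control 3 alone, 1.46-fold and 1.54-fold, against 1.05-fold and 0.954-fold in knockout 3. EGR1, FOSL1 and MYC stayed between 0.966-fold and 1.08-fold in both groups. Replicate 3 was the highest control library for 8 of the 10 genes and the highest knockout library for 6. Over all tested genes these shares were 42.1% and 19.9%. Its part in the result of each gene beyond the values given was not tested.

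**Figure D1:**
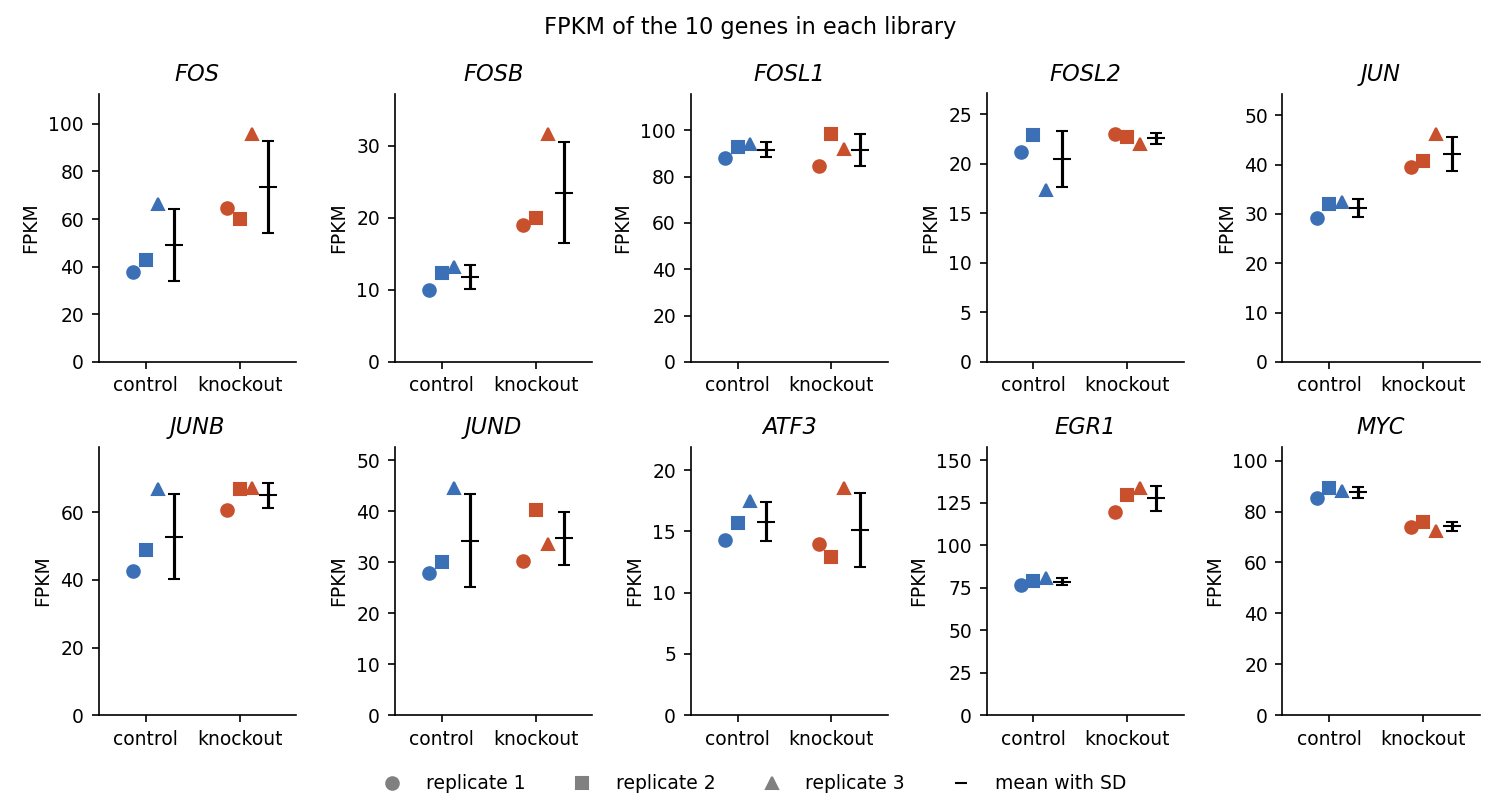
FPKM of each of the 10 genes (vertical axes, each from 0 with its own range) in the 3 control libraries (blue) and the 3 knockout libraries (red), with the symbol giving the replicate number and the black mark the mean with its SD. EGR1, FOSB and JUN lie wholly higher in the knockout and MYC wholly lower, and replicate 3 (triangles) is highest in both groups for FOS, FOSB, JUN, JUNB, ATF3 and EGR1.

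JUNB encodes a JUN protein that can counter the action of c-Jun. It lies on chromosome 19 at 12791496 to 12793315 (ENSG00000171223). The knockouts gave 60.6, 67.0 and 67.3 FPKM and the controls 42.5, 49.0 and 66.9 FPKM. Controls 1 and 2 lay below every knockout library and control 3 lay among them. The log2 fold change of 0.32 (95% interval -0.01 to 0.64; limma, adjusted p = 0.139) did not pass. It became 0.50 (adjusted p = 3.74e-05) without control 3, and with the replicate block 0.32 had an adjusted p of 0.0474. JUNB shares 259 exonic bases with HOOK2 on the opposite strand, and no strand setting is given in the sources used here. HOOK2 measured 19.4 ± 0.214 against 18.2 ± 1.23 FPKM (SD, n = 3) and did not pass (adjusted p = 0.369).

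JUND, the JUN protein that is kept up in resting cells, lay at 30.2, 40.3 and 33.6 FPKM in the knockouts and 28.0, 30.1 and 44.6 FPKM in the controls. Control 3 was the highest and control 1 the lowest of all, so the groups overlapped throughout. The log2 fold change was 0.04 (95% interval -0.34 to 0.42; limma, adjusted p = 0.887). Without control 3 it was 0.24 and passed (adjusted p = 0.0411), and after the GC and length correction it was -0.09 (adjusted p = 0.424). JUNB and JUND lie 5.5 Mb apart on a gene-rich part of chromosome 19, where tested genes within 10 Mb had medians of 0.11 and 0.12.

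FOSL1, encoding FRA-1, a FOS protein of proliferating and wounded keratinocytes, was the most abundant member in the control. It measured 84.5, 98.2 and 92.1 FPKM in the knockouts and 88.2, 93.0 and 94.0 FPKM in the controls. The knockout range enclosed the control range. Its log2 fold change was -0.0041 (limma, adjusted p = 0.974), with a 95% interval that ran from 0.882-fold to 1.13-fold of control. FOSL2, encoding FRA-2, gave 23.0, 22.7 and 22.0 FPKM in the knockouts and 21.2, 22.9 and 17.4 FPKM in the controls, control 3 being lowest. Its log2 value was 0.14 (95% interval -0.08 to 0.36; adjusted p = 0.314), and 0.03 without control 3. ATF3, a stress-induced bZIP factor that can pair with JUN proteins, gave 14.0, 12.9 and 18.6 FPKM against 14.3, 15.7 and 17.5 FPKM, with knockouts at both ends of the range. The log2 value was -0.07 (95% interval -0.36 to 0.22; adjusted p = 0.724).

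MYC, the bHLH factor of cell growth, was the gene of the 10 that fell. It lies on chromosome 8 at 127735434 to 127741434 (ENSG00000136997). It measured 74.1, 76.0 and 72.5 FPKM in the knockouts and 85.3, 89.4 and 88.0 FPKM in the controls. The groups did not overlap and the spread was small, at 74.2 ± 1.75 against 87.5 ± 2.07 FPKM (SD, n = 3). On the log2 scale the difference was -0.24 (SE 0.0667), with an adjusted p of 0.034 from limma. The call was lost without knockout 1, 2 or 3 (adjusted p = 0.108, 0.0733 and 0.165) or without control 1 or 2 (0.0837 and 0.0879), with log2 values from -0.25 to -0.22. Scaled to the FPKM sum without mitochondrially encoded genes, which took 20.9% to 30.8% of all FPKM, the value was -0.19 (adjusted p = 0.084). Most genes around MYC were lower as well. Of 39 tested genes within 10 Mb, 24 were lower and 1 higher, beside 13.3% and 9.58% of all tested genes, with a median of -0.35. MYC fell by less than 27 of these 39 genes. Without control 3 the median of the neighbours was -0.36, and after the GC and length correction it was -0.27. Copy number was not measured, and a change of this stretch of chromosome 8 as a whole cannot be told apart from a change of MYC alone.

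**Figure D2:**
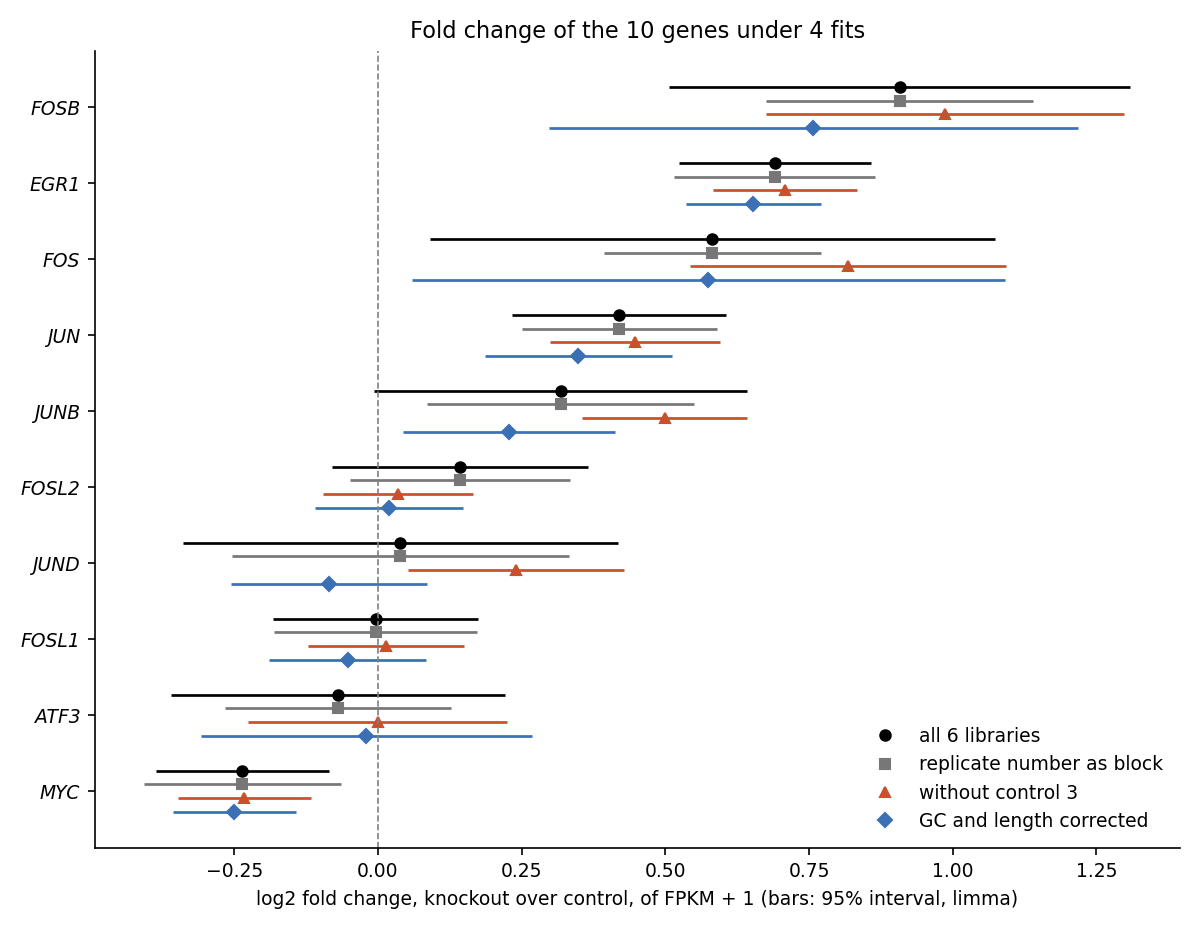
Log2 fold change of FPKM + 1, knockout over control (horizontal axis), for each of the 10 genes with its 95% interval from limma, fitted with all 6 libraries, with the replicate number as a block, without control 3, and after the correction for GC content and transcript length. EGR1, FOSB and JUN stay above 0 and MYC below 0 in all 4 fits, and the values of FOS, JUNB and JUND are higher when control 3 is left out.

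FPKM is per transcript length, so the levels of the members can be set side by side. In the control the order of mean FPKM was FOSL1, MYC, EGR1, JUNB, FOS, JUND, JUN, FOSL2, ATF3 and FOSB, from 91.7 to 11.8 FPKM. Neighbours in that order whose libraries overlapped were FOSL1 and MYC, JUNB and FOS, FOS and JUND, JUND and JUN, and FOSL2 and ATF3. In the knockout EGR1 led at 128 FPKM, clear of FOSL1 at 91.6 FPKM, and FOSB stood above FOSL2 and ATF3, although its libraries overlapped those of FOSL2. All 10 were well expressed: by mean FPKM over all libraries ATF3, at the 64.4 percentile, was lowest among the tested genes and EGR1, at the 95.6 percentile, highest.

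Summed over FOS, FOSB, FOSL1 and FOSL2, the FOS family came to 191.2, 200.8 and 241.1 FPKM in the knockouts and 157.2, 171.0 and 191.1 FPKM in the controls. Control 3 lay just under the lowest knockout library. The sum was 1.22-fold higher in the knockout (exact two-sided permutation p = 0.1, the smallest possible). FOSL1 supplied 53.2% ± 3.59 of the control sum and 43.7% ± 5.38 of the knockout sum (SD, n = 3), with no overlap between groups (permutation p = 0.1). FOSB went from 6.81% ± 0.451 to 11.0% ± 1.83, also with no overlap (exact permutation p = 0.1). For FOS the shares were 28.0% ± 5.90 and 34.5% ± 4.92 (exact permutation p = 0.3), and for FOSL2 they were 12.0% ± 2.50 and 10.8% ± 1.52 (exact permutation p = 0.6). The 4 shares add up to the whole, so they are not independent. The mean shares of FOS and FOSB were higher in the knockout and those of FOSL1 and FOSL2 lower. FOSL1 itself had nearly the same mean in both groups, 91.6 and 91.7 FPKM in knockout and control.

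The JUN family, JUN, JUNB and JUND together, came to 130.3, 148.1 and 147.0 FPKM in the knockouts and 99.7, 111.0 and 144.0 FPKM in the controls. Control 3 exceeded knockout 1. The ratio of means was 1.20 (exact permutation p = 0.2), and 1.35 without control 3. JUNB made the largest share in both groups, 45.9% ± 0.651 and 44.4% ± 1.94 in knockout and control (SD, n = 3). FOS family FPKM over JUN family FPKM was 1.49 ± 0.143 in the knockout and 1.48 ± 0.135 in the control (SD, n = 3; exact permutation p = 1).

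**Figure D3:**
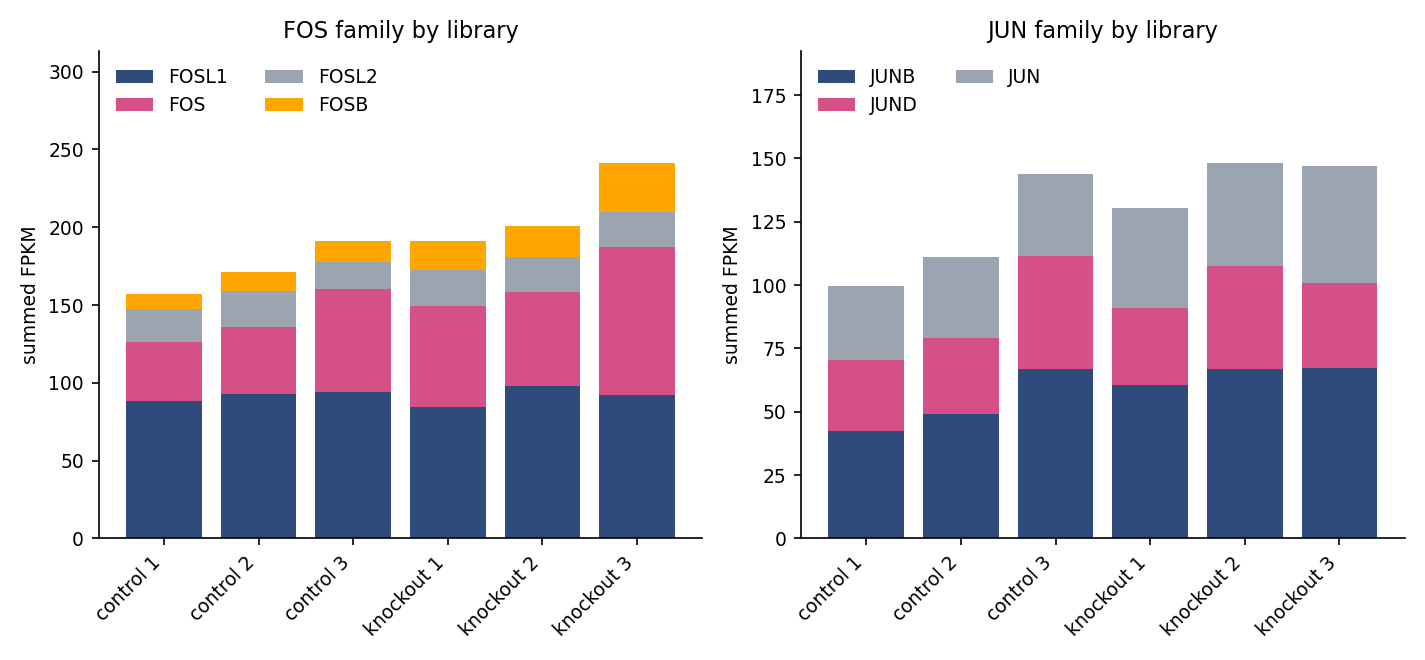
Summed FPKM of the FOS family (left) and the JUN family (right) in each library, with each bar split by gene. FOSL1 is the widest band of the FOS family in every library but knockout 3, where FOS is, and the FOSB band is wider in each knockout than in any control, while control 3 has the tallest JUN family bar of the controls.

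Genes that act with, upstream or downstream of AP-1 and MYC were grouped in 7 lists, which hold 124 further genes. Of 102 tested, 5 rose and 16 fell, beside 9.58% and 13.3% of all tested genes, and the median log2 value was -0.04. At an unadjusted p under 0.05, 18 were higher and 24 lower, beside 17.1% and 21.0% of all tested genes. With the replicate block 13 were higher and 20 lower (12.1% and 14.9% of all tested genes), and after the GC and length correction 11 and 21 (11.8% and 15.5%). Without control 3 the counts were 18 and 28 (18.7% and 21.5%).

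Other bZIP partners of FOS and JUN numbered 12, of which 5 were tested, with a median of 0.01. MAFG, a small MAF protein that lacks an activation domain, fell from 11.3 ± 1.54 to 8.68 ± 0.154 FPKM (log2 fold change -0.34, limma adjusted p = 0.0362). ATF7, MAFF, MAFK and ATF2 did not pass. ATF7, at 0.37 (adjusted p = 0.138), passed with the replicate block (0.0362) and without control 2 (0.0319), and without control 3 its value was 0.15. MAFK passed after the GC and length correction, which moved it from -0.05 to -0.23 (adjusted p = 0.00718), and MAFF without control 3 (0.21, adjusted p = 0.0213). The MAFG call was lost without any 1 of the knockout libraries, control 1 or control 2. Among the 7 below the filter, JDP2 stood out and was picked after its values were seen. JDP2 encodes a bZIP repressor that pairs with JUN proteins, and it lies 145 kb beyond the 3′ end of FOS on chromosome 14. It measured 1.45, 1.84 and 1.70 FPKM in the knockouts and 0.238, 0.254 and 0.329 FPKM in the controls, 6.07-fold by the ratio of means. Fitted without the filter, its log2 value was 1.06 (limma, adjusted p = 0.000716). BATF, on the same stretch, was listed at 0 in every library, and genes within 10 Mb of FOS had a median of -0.01.

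Other immediate early genes numbered 28, of which 22 were tested, and CCN1, CSRNP1 and NR4A1 rose while 19 did not pass. Their median was 0.16, and the 3 rises stand beside 9.58% higher and 13.3% lower among all tested genes. CCN1, a matricellular protein, went from 82.0, 83.4 and 89.1 FPKM in the controls to 129.4, 124.6 and 138.1 FPKM in the knockouts (log2 fold change 0.62, limma adjusted p = 0.000886). CSRNP1, a nuclear factor, and NR4A1, an orphan nuclear receptor, were 1.43-fold and 1.34-fold the control mean, at 2.74 ± 0.0919 and 4.98 ± 0.627 FPKM in the knockout (SD, n = 3). The NR4A1 value of 0.34 went to 0.14 after the GC and length correction and did not pass (adjusted p = 0.347), and the call was also lost without knockout 2, knockout 3 or control 1. GADD45B, a stress sensor, had 0.31 (adjusted p = 0.0548) and did not overlap between groups. It passed with the replicate block (0.0325), after the GC and length correction (0.00998), with both (0.0181), scaled without mitochondrial genes (0.0279) and without control 3 (0.000328). Without control 3, 10 of the 22 were higher and 1, IER3, lower, beside 18.7% higher and 21.5% lower of all tested genes in that fit. IER3 measured 190 ± 2.30 against 245 ± 43.8 FPKM (SD, n = 3), at -0.35 (limma, adjusted p = 0.0585). It passed as lower with the replicate block (0.0413), after the GC and length correction (0.00761) and when scaled without mitochondrial genes. With the replicate block 6 of the 22 were higher and 2, IER3 and CCN2, lower, beside 12.1% and 14.9% of all tested genes. EGR2, EGR3 and EGR4, relatives of EGR1, were below the filter, at no more than 0.347 FPKM in any library.

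Of 19 kinases and transcription factors upstream of these genes, RPS6KA3 and MAP2K4 fell and 17 did not pass, with a median of 0.02. Among all tested genes, 13.3% fell and 9.58% rose. RPS6KA3 encodes RSK2, a kinase that ERK activates, and stood at 73.5% of control (10.1 ± 0.836 against 13.7 ± 0.297 FPKM). MAP2K4, which activates JNK, stood at 80.8%, and lost its call without knockout 2, knockout 3, control 1 or control 2. MAPK8, encoding JNK1, had -0.25 (adjusted p = 0.0544) and MEF2D 0.27 (adjusted p = 0.0626), and both passed with the replicate block (0.048 and 0.0334). SRF, the serum response factor, had 0.26 (adjusted p = 0.0796), passed with the replicate block (0.036), and had 0.12 after the GC and length correction (adjusted p = 0.275).

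None of 9 tested ubiquitin ligases and deubiquitinases of JUN and MYC passed (limma), and their median was 0.06. At an unadjusted p under 0.05, 1 was lower and 0 higher, beside 21.0% and 17.1% of all tested genes. USP36, a nucleolar deubiquitinase, had -0.34 (adjusted p = 0.0739), and passed with the replicate block (0.0268) and after the GC and length correction (-0.53, adjusted p = 0.00142). COP1, a ligase of JUN, had -0.12 (95% interval -0.28 to 0.03). USP28, a deubiquitinase of MYC, had -0.13 (adjusted p = 0.277), and passed without control 3 (-0.20, adjusted p = 0.0335).

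In the MYC dimer network of 9 tested genes, MXD4 rose, MLX and MXI1 fell and 6 did not pass, with a median of -0.10. Among all tested genes, 9.58% rose and 13.3% fell. MXD4 and MXI1 both encode repressors that compete with MYC for MAX. MXD4 went from 1.98, 2.05 and 1.87 FPKM in the controls to 3.03, 3.48 and 3.16 FPKM in the knockouts (log2 fold change 0.51, limma adjusted p = 0.00163), while its value after the GC and length correction was 0.34. MXI1 stood at 81.0% of control, and its call was lost without any 1 of the knockout libraries, control 1 or control 2 (adjusted p from 0.0624 to 0.0939), when scaled without mitochondrial genes (0.0934) and with the GC and length correction and the block (0.0566). MLX, the partner of the glucose-sensing MLXIP, fell to 70.9%. MAX itself had -0.10 (adjusted p = 0.326).

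Of 16 tested AP-1 targets of keratinocytes, PLAU, EREG, MMP1, GJA1, AREG and MMP10 fell, 1 rose and 9 did not pass. Those 6 falls stand beside a share of 13.3% lower among all tested genes, and the median was -0.11. The 6 genes are not separate loci. EREG and AREG lie close together on chromosome 4 (starts 74365143 and 74445134), and MMP1 and MMP10 on chromosome 11 (starts 102789920 and 102770503). PLAU, the urokinase protease, measured 59.0, 59.3 and 60.7 FPKM in the knockouts and 91.7, 97.9 and 102.6 FPKM in the controls (log2 fold change -0.70, limma adjusted p = 0.000427). EREG and AREG, ligands of the EGF receptor, stood at 48.4% and 60.3% of control. GJA1, the gap junction protein connexin 43, stood at 64.8%. MMP1, interstitial collagenase, was near the filter, at 0.538 ± 0.0600 against 1.59 ± 0.245 FPKM (SD, n = 3), so that a pseudocount of 0.1 turned its log2 value of -0.75 into -1.40. MMP10, also near the filter, lost its call after the GC and length correction (-0.33, adjusted p = 0.0592) and without knockout 2 (0.0547). Many other factors also control these genes, and binding by AP-1 was not measured.

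Of 22 tested MYC targets of ribosome and polyamine synthesis, 5 fell and 17 did not pass, with a median of -0.14. Among all tested genes, 13.3% fell and 9.58% rose. ODC1, the first enzyme of polyamine synthesis, measured 66.5, 65.2 and 67.5 FPKM in the knockouts and 92.9, 93.0 and 101.4 FPKM in the controls (log2 fold change -0.52, limma adjusted p = 0.00143). NME1, a nucleoside diphosphate kinase, stood at 64.7% of control, and DKC1, the pseudouridine synthase of ribosomal RNA, at 79.6%. NPM1, nucleophosmin, stood at 79.9%, with an adjusted p of 0.0355 that became 0.0523 with the replicate block. NPM1 did not pass when knockout 1, 2 or 3 or control 1 was left out (adjusted p from 0.0993 to 0.128), nor did DKC1 without knockout 3 (0.0554). Without control 3, 12 were lower and 3 higher, in a fit where 21.5% of all tested genes were lower and 18.7% higher. Without knockout 3, 2 of the 22 passed, ODC1 and NME1, both lower, beside 6.48% lower of all tested genes.

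**Figure D4:**
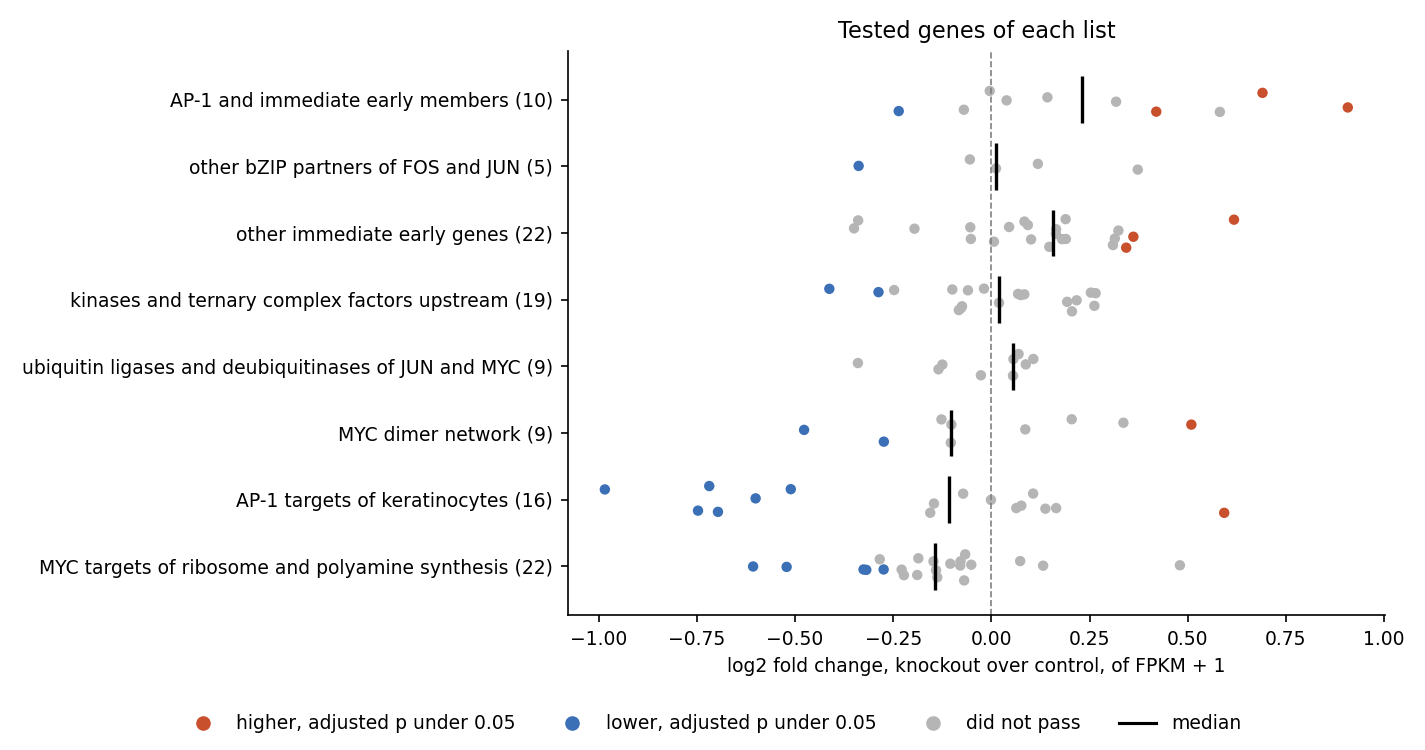
Log2 fold change of FPKM + 1, knockout over control (horizontal axis), of every tested gene in the 10-gene set and in the 7 related lists (number tested in parentheses), red for higher, blue for lower and grey for genes that did not pass, with a black line at the median. The 10 genes have a median of 0.23, and the AP-1 target list has 6 genes on the lower side and 1 on the higher side past the threshold.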

How the data were processed

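RNA from 6 HaCaT libraries, 3 per genotype, was analysed. Per the submitters' processing notes the tools were Trimmomatic 0.36, HISAT2 2.0.5, featureCounts 1.6.3, edgeR 3.6.3 and Cufflinks, with build GRCh38.p13. Sources used here do not give their roles, the annotation or the strand setting. The authors deposited FPKM values with 3 decimals, which are not counts, so no count test was run. Symbols came from a name table, gene models from GENCODE 29. limma 3.58.1 in R 4.3.3 was fitted with genotype as the sole term and a variance trend, on log2(FPKM + 1), for genes averaging at least 1 FPKM, after tests on simulated data. Tables used Python 3.11.15. Same-numbered libraries deviated together (correlations 0.375, 0.150 and 0.188 across genes, all over 0.1). By that rule from the data, not the labels, the replicate number was also fitted as a block. The main calls do not use the block, and p-values with it rest on a pairing drawn from the same values. The members and lists were chosen with earlier results of these data known. All members are named, with up to 4 genes of smallest p per list; JDP2, BATF, HOOK2, and list members beyond those 4, were added after values were seen. Values of a few list genes are not reported here.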

Additional observations from a re-analysis of the deposited data

How the results depend on the processing

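Alternatives numbered 14, 6 of them leaving out a library. EGR1, FOSB and JUN kept direction and call in all 14. Members higher numbered 3, beside 9.58% of all tested genes. They became 5 with the replicate block (12.1% of all tested genes), and also 5 with the block and the GC and length correction (10.8%). With array weights they numbered 7 (27.9% of all tested genes), and leaving out a library gave 3 to 6 (3.47% to 18.7%). Members lower numbered 1 (13.3% of all tested genes), 0 when scaled without mitochondrial genes (8.99%), and 0 to 1 without a library (5.67% to 21.5%). Array weights, whose estimation stopped before convergence and which gave control 3 a weight of 0.123, turned ATF3 to 0.21 (adjusted p = 0.0392). All tested genes past the threshold numbered 2579 (1079 higher, 1500 lower), 6437 (3139 and 3298) with array weights and 686 higher as TPM, where higher genes made up 29.5% of calls against 41.8%. With array weights the higher share was 48.8%, and scaled without mitochondrial genes 49.1%. Leaving out a library gave 1030 to 4521 in all, 391 to 2103 higher and 639 to 2418 lower. Related genes numbered 5 higher and 16 lower of 102 tested, beside 9.58% and 13.3% of all tested genes. The higher count was 13 with the replicate block (12.1% of all tested genes), 11 with the GC and length correction (11.8%) and 12 with both (10.8%). It was 34 with array weights (27.9% of all tested genes) and 4 to 18 without a library (3.47% to 18.7%). The lower count was 33 with array weights (29.3% of all tested genes) and 10 to 28 without a library (5.67% to 21.5%). Family ratios moved by less than their spread. Causes were not tested. Counting error could not be computed, since FPKM holds no counts.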
